A study of Mus musculus with 112 samples.

Results

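The 67 genes described here encode the 4 classical families of axon guidance cues and their receptors, as far as a mouse expression array named them. They were chosen by symbol: semaphorins, their plexin and neuropilin receptors, netrins and Unc5 receptors, Slits and Robos, and the ephrins with their EphA and EphB receptors. A gene was counted where a probe set carried its symbol alone, and the probe set with the highest mean was used, which gave 67 of 18772 genes. By family these were 20 semaphorins, 11 plexins and neuropilins, 8 netrins and Unc5 receptors, 7 Slits and Robos, 9 EphA receptors, 4 EphB receptors and 8 ephrins.

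The study followed chemically induced skin cancer from normal skin through benign and malignant primary tumours to metastases within the same animals. The mice were 15 FVBBX males, a backcross in which F1 animals of Spretus and FVB were bred to FVB, so that each mouse carried its own mixture of alleles. Of these, 9 were wild type (WT) and 6 were HrasKO. All were given 25 mg of the mutagen DMBA once at 8 weeks of age and then 200 microlitres of the tumour promoter TPA 2 times a week. Primary tumours were resected once they were over 1 cm across, and all mice had metastases at sacrifice. The skin was dorsal skin of these same animals, so no group was untreated. RNA was measured on 112 arrays. Dorsal skin gave 15 arrays from 15 mice and papillomas, the benign tumours, gave 27 arrays from 13 mice. Squamous cell carcinomas (SCC), which keep an epithelial form, gave 10 arrays from 8 mice, and spindle carcinomas, made of elongated cells, gave 12 arrays from 10 mice. Metastases with SCC histology gave 24 arrays from 11 mice and those with spindle histology 20 arrays from 7 mice. All 8 mice with an SCC carcinoma were WT, whereas spindle carcinomas came from 6 WT and 4 HrasKO mice. The mouse was the unit of replication throughout: arrays of a mouse and group were averaged first. No probe set with the symbol of the deleted gene was analysed here, so the genotype labels were not checked on it.

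Some arrays stood apart from their labelled histology. By mean correlation over genes outside the list, 16 arrays resembled another tissue class (skin, squamous or spindle) more than their own. Of the papillomas, 4 arrays were closest to spindle tumours, among them both papilloma arrays of mouse 1815, and 3 were closest to skin. Of the SCC metastases, 8 arrays were closest to spindle tumours. The spindle carcinoma of mouse 1949 was closest to the squamous class. Group levels are given with them. Each comparison was also run without them, and its count is given where it changed. No guidance gene passed without them in spindle metastasis against spindle carcinoma, the interaction, lung against lymph node or either genotype comparison, as with them. The arrays were picked by their expression, so leaving them out draws the histologies apart by construction, and values without them are descriptions. The epithelial marker list (12 genes, such as Krt5, Cdh1 and Epcam) had a mean log2 level per mouse of 10.33 to 11.32 in SCC carcinoma and 5.38 to 11.05 in spindle carcinoma, with a median of 6.91 in the latter. In papilloma it ranged from 6.06 to 11.34, with a median of 11.02. Each tumour sample was bulk tissue, in which fewer cells of a type and less RNA per cell cannot be told apart.

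Guidance cues were named for steering growing axons, but most of these families also act in epithelia, vessels and immune cells. Semaphorins signal through plexins, with neuropilins as co-receptors for most secreted class 3 members. Netrins are secreted relatives of laminins that bind Dcc, neogenin and the Unc5 receptors, and Slits bind Robos. Ephrins are anchored in the membrane of one cell and bind Eph receptor tyrosine kinases on its neighbour, so that signals pass both ways at cell contacts. In epidermis, Eph receptors and ephrins take part in cell sorting and adhesion, and class 4 semaphorins with plexin B receptors act at cell junctions.

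All values below are log2 intensities. A level is a mean of mouse means with its SD, and levels of different genes are not set against each other, because probe sets differ in brightness. Among the ephrins, Efna3, a GPI-anchored ephrin-A, had the widest range of group means. Its level was 10.99 ± 0.60 in skin (SD, n = 15), 10.09 ± 1.76 in papilloma (n = 13), 9.74 ± 0.91 in SCC carcinoma (n = 8), 6.91 ± 1.75 in SCC metastasis (n = 11), 5.92 ± 1.88 in spindle carcinoma (n = 10) and 4.65 ± 0.16 in spindle metastasis (n = 7). The group means thus fell in the order of skin, papilloma, SCC carcinoma, SCC metastasis, spindle carcinoma and spindle metastasis, and of neighbours in that order the SCC carcinomas and SCC metastases were farthest apart, with means separated by more than either SD. The other neighbours differed by less than the larger of their SDs. Epha1, an EphA receptor that is typical of epithelia, stood between 8.08 ± 1.60 and 8.93 ± 0.59 in skin, papilloma, SCC carcinoma and SCC metastasis. It was 6.05 ± 1.26 in spindle carcinoma and 5.64 ± 0.38 in spindle metastasis. The spindle groups were therefore the lowest for both genes, and their highest mouse in spindle carcinoma, at 10.30 for Efna3 and 9.47 for Epha1, was mouse 1949.

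The stretch upstream is shown for 3 genes that differed between spindle and SCC carcinomas of WT mice (limma adjusted p under 0.05). Epha1 and Epha4 were lower in spindle carcinoma, and Sema3a, a secreted semaphorin that repels axons, was higher. The carcinoma groups overlapped for all 3, and none of them passed between spindle and SCC metastases. The Sema3a call held in 8 of 19 other settings. Each stretch is the 250 bases before the RefSeq transcription start in build GRCm38.p6, read 5′ to 3′ on the gene's own strand, and capitals mark any match to CACCTG or its complement CAGGTG, an E-box of the kind bound by the Snail and Zeb repressors.
Epha1 (chr6:42373269-42373518, minus strand): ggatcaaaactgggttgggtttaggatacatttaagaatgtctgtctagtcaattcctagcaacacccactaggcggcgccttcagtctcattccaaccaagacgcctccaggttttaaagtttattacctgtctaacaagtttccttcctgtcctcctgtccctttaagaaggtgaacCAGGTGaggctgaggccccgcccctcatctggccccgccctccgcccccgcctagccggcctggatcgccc
Epha4 (chr1:77515089-77515338, minus strand): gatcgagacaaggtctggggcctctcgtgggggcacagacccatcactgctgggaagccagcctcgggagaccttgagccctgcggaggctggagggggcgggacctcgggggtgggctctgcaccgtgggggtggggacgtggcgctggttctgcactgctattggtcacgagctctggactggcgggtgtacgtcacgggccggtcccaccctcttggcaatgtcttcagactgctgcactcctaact
Sema3a (chr5:13396534-13396783, plus strand): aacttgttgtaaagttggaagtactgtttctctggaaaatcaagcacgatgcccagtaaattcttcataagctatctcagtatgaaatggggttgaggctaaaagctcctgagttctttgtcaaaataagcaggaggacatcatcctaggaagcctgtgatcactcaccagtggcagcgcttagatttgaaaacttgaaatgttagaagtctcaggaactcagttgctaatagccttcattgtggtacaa
The E-box letters occurred 1 time upstream of Epha1, starting at base -71 from the transcription start, and not in the windows of Epha4 and Sema3a. A window was found for 58 of the 67 genes, with 74 windows in all since some genes have several starts. The letters occurred on either strand in 9 of these 74 windows (12.2%), against 17.2% of all 32851 windows of the same length, a lower share, which was not tested. Both Efna3 windows lacked them. A match is one of letters only.

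The other genes with the widest range of means in their family were Ephb6, Plxnb1, Ntn1, Slit1 and Sema3d. Ephb6, an Eph receptor without kinase activity, was highest in skin at 9.22 ± 0.69 and lower in papilloma at 8.54 ± 0.77. Its level was 7.77 ± 0.64 in SCC carcinoma, 7.33 ± 0.80 in spindle carcinoma, 7.41 ± 0.74 in SCC metastasis and 7.26 ± 1.11 in spindle metastasis, and these last 4 means lay within 1 SD of each other. Plxnb1, the plexin that binds Sema4d, was 8.53 ± 0.70 in skin, 8.55 ± 1.08 in papilloma, 8.80 ± 0.51 in SCC carcinoma and 8.29 ± 1.05 in SCC metastasis. It was 6.46 ± 1.05 in spindle carcinoma and 6.44 ± 0.49 in spindle metastasis, so that both spindle groups were lower than every other group. Ntn1, the founding netrin, ran the other way. It was 8.72 ± 0.35 in skin, 7.35 ± 0.96 in papilloma and 6.30 ± 1.20 in SCC carcinoma, but 9.67 ± 1.44 in spindle carcinoma. In metastases it was 7.07 ± 1.23 with SCC and 8.44 ± 1.30 with spindle histology. Its lowest and highest means were thus those of the SCC and spindle carcinomas.

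Slit1, a ligand of the Robo receptors, was 5.84 ± 0.39 in skin, 6.92 ± 0.76 in papilloma and 7.48 ± 1.17 in SCC carcinoma. In spindle carcinoma it was 5.64 ± 0.68, in SCC metastasis 5.75 ± 0.63 and in spindle metastasis 5.37 ± 0.17. Papillomas and SCC carcinomas were therefore the groups with the highest Slit1, and the means of spindle carcinoma and SCC metastasis lay within 1 SD of skin. Sema3d, a secreted class 3 semaphorin, was highest in skin at 8.66 ± 0.82. It was 5.97 ± 0.93 in papilloma, 5.22 ± 0.59 in SCC carcinoma, 6.51 ± 0.79 in spindle carcinoma, 6.71 ± 1.16 in SCC metastasis and 7.25 ± 0.86 in spindle metastasis. Every tumour group had a lower mean than skin.

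Of the 67 genes, 12 had all 6 group means under 6.12, the median of all values on the arrays. Of these, 8 were also called in none of the 11 comparisons: Efnb3, Epha5, Epha6, Ntn3, Ntn5, Plxnb3, Unc5c and Unc5d. A low array value can be background, so these 8 are named only. A further 9 genes were never called, among them Slit2, Robo1, Robo2 and Robo4.

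**Figure D1:**
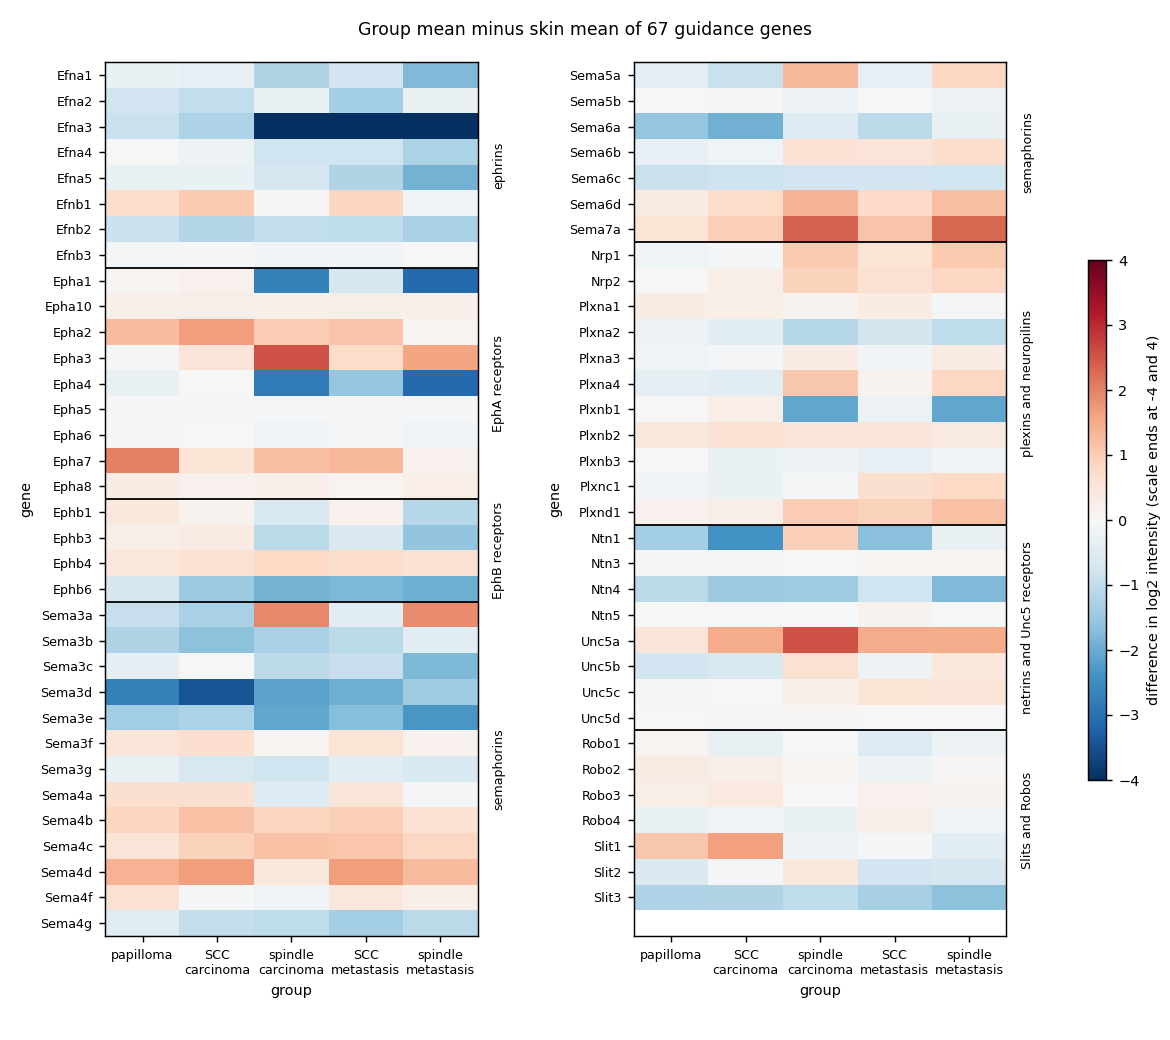
Heat map of all 67 genes by family (rows) in the 5 tumour groups (columns), as the group mean of mouse means minus the skin mean in log2 units, blue lower and red higher, with the colour scale ending at -4 and 4. Epha1, Epha4 and Plxnb1 are darkest blue in the spindle groups, Efna3 is at the end of the scale there and in SCC metastasis, Sema3a and Sema7a are red there, and Sema3d is blue in every tumour group.

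Papilloma was compared with dorsal skin of the same mouse in 13 mice, which asks what changes at the benign stage. Of the 67 genes, 33 passed the test (adjusted p under 0.05 by limma over all genes, with mouse as a block), 18 higher and 15 lower in papilloma. This was close to the background, since 42.6% of all genes passed, 24.5% higher and 18.1% lower. The largest rise was that of Epha7, an EphA receptor, and the largest fall that of Sema3d. The EphA receptors that passed, 4 of 9, all rose.

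Epha7 had a lowest, median and highest mouse value of 4.90, 5.30 and 5.73 in skin and of 6.57, 7.26 and 8.70 in papilloma. The groups did not overlap, which held for 2 of the 67 genes, Epha7 and Sema6c, and for 2.02% of all genes. It rose by 2.04 (SE 0.19), 4.12-fold, in 13 of 13 mice (limma adjusted p = 2.73e-06). All its skin values lay under 6.12, the median of all values, where a value can be background, so the size of the rise is uncertain. Epha2, an EphA receptor of keratinocytes, rose by 1.24 (SE 0.18) in 12 of 13 mice (adjusted p = 7.93e-05), from a median of 8.61 to one of 9.91, with overlap. Epha8 and Epha10 also passed, at low levels, with means under 5 in both tissues. Ephb4, the receptor of Efnb2, rose by 0.47 (SE 0.08) in 13 of 13 mice. Efnb2 itself fell by 0.81 (SE 0.17), 1.75-fold, in 11 of 13 mice (adjusted p = 0.00129), while Efnb1 rose by 0.77 (SE 0.21) in 11 of 13 mice (adjusted p = 0.00967). Receptors and their ligands thus did not move in one direction.

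Of the 20 semaphorins, 7 rose, 8 fell and 5 did not pass. Sema3d had a lowest, median and highest value of 6.98, 8.84 and 9.998 in skin and of 4.76, 5.70 and 7.76 in papilloma, and fell by 2.67 (SE 0.32), 6.38-fold, in 12 of 13 mice (adjusted p = 2.12e-05). Sema3e fell by 1.32 (SE 0.20) and Sema3b by 1.19 (SE 0.18), each in 13 of 13 mice. Sema3c and Sema3g fell by less, 0.39 and 0.30, Sema3f rose by 0.49 (SE 0.06), and Sema3a did not pass. Of the transmembrane semaphorins, Sema6a fell by 1.56 (SE 0.16) in 13 of 13 mice (adjusted p = 5.74e-06). Sema6c fell by 0.90 (SE 0.07) with no overlap of the groups, from a skin range of 5.95 to 6.75 to a papilloma range of 5.13 to 5.89. The 5 class 4 semaphorins that passed rose, and Sema4g did not pass. Sema4d, the ligand of Plxnb1, rose by 1.36 (SE 0.17), 2.57-fold, in 12 of 13 mice (adjusted p = 2.45e-05), from a median of 7.54 to one of 9.08. Sema4b rose by 0.86 (SE 0.10) in 13 of 13 mice (adjusted p = 1.46e-05), and Sema4a, Sema4f and Sema4c rose by 0.68, 0.62 and 0.52.

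Among netrins and Slits, Ntn1 fell by 1.41 (SE 0.29), 2.65-fold, in 12 of 13 mice (adjusted p = 0.00127), with skin at 8.28, 8.62 and 9.52 (lowest, median, highest) and papilloma at 6.21, 7.33 and 9.83. Ntn4, a netrin of basement membranes, fell by 1.06 (SE 0.14) in 12 of 13 mice (adjusted p = 3.96e-05). Slit3 fell by 1.23 (SE 0.17) in 13 of 13 mice (adjusted p = 5.46e-05), whereas Slit1 rose by 1.04 (SE 0.16) in 12 of 13 mice (adjusted p = 0.000174). Slit1 had a median of 5.91 in skin and 7.01 in papilloma. The remaining called genes (Efna2, Plxna1, Plxna4, Plxnb2, Robo3, Sema5a, Sema7a, Unc5a and Unc5b) differed by at most 0.74 in either direction.

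Cell type markers moved in the same comparison. All 10 skeletal muscle markers and 9 of 10 hair follicle markers were lower in papilloma, as were 6 of 9 endothelial, 4 of 11 fibroblast, 2 of 7 Schwann cell, 2 of 9 lymphocyte, 1 of 9 lung epithelial and 1 of 12 epithelial markers. The 2 of 10 macrophage markers that passed were higher. The hair follicle list had a mean per mouse of 4.60 to 11.40 in skin and 4.28 to 6.93 in papilloma, and the muscle list 5.24 to 11.83 and 4.91 to 8.26. The part of these lists in the falls of the guidance genes was not tested. After the arrays that stood apart were left out, 41 of the 67 genes passed, 20 rising and 21 falling. The share of all genes in that setting is not given here, so this count is no result about the list.

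**Figure D2:**
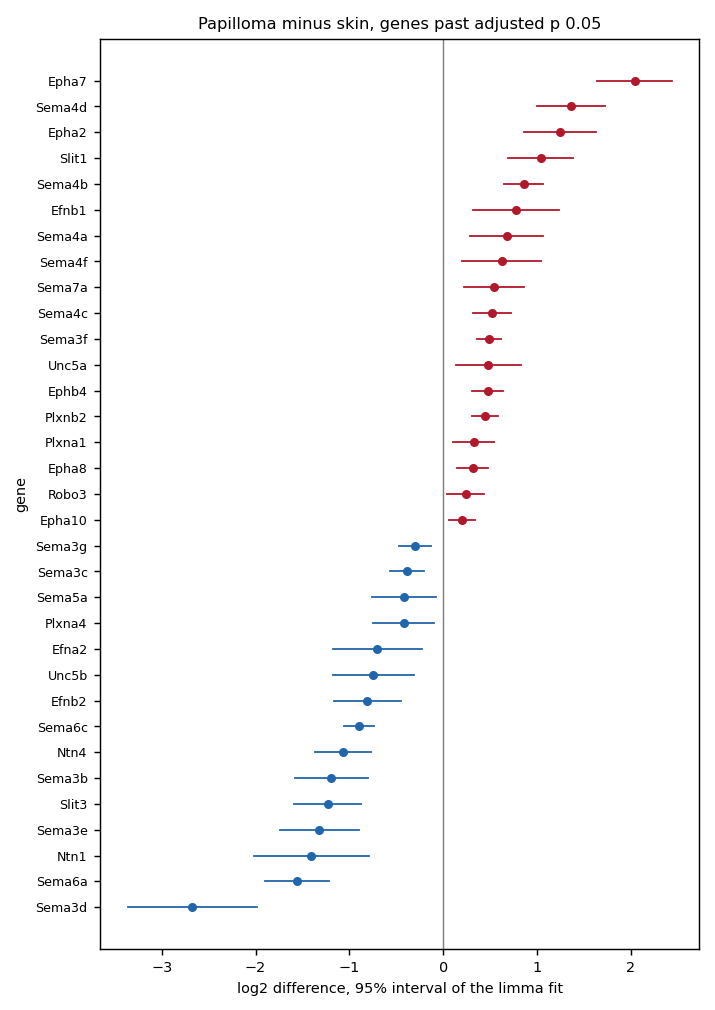
Log2 difference, papilloma minus skin of the same mouse (points, 13 mice), with its 95% interval from the limma fit (lines), for the 33 genes past adjusted p 0.05, red higher and blue lower in papilloma. Epha7 lies farthest right at 2.04 and Sema3d farthest left at -2.67.

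In 8 mice, the SCC carcinoma could be set against papilloma tissue of the same animal. None of the 67 genes passed the test by limma, and 0.202% of all genes did. At an unadjusted p under 0.05 there were 11 genes, 2 higher and 9 lower, which is 16.4% of the list against 9.42% of all genes. The largest difference was that of Epha7, which was 1.40 lower in SCC carcinoma (SE 0.23, adjusted p = 0.0541) and lower in 8 of 8 mice. Its lowest, median and highest values were 6.57, 7.26 and 8.20 in papilloma and 5.41, 5.87 and 6.94 in SCC carcinoma, so the groups overlapped. The next was Unc5a, a netrin receptor, with a difference of 1.02 (SE 0.38, adjusted p = 0.41) and higher values in 6 of 8 mice. Epha7 passed the test with a filter on low values, with repeated quantile normalization and with no mouse block, where its adjusted p ranged from 0.0331 to 0.0462. In the other settings, apart from leaving out the arrays that stood apart, it ranged from 0.0522 to 0.172. No marker list had a gene that passed in this comparison.

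In 9 mice, spindle carcinoma and papilloma came from the same animal. Of the 67 genes, 30 passed the test, 13 higher and 17 lower in spindle carcinoma. That is 44.8% of the list, where 23.8% of all genes passed, 12.6% higher and 11.2% lower. Of the 8 ephrins 3 fell, and of the 9 EphA receptors 2 fell and 1 rose. Of the 4 EphB receptors 2 fell. Of the 11 plexins and neuropilins 4 rose and 2 fell, and of the 8 netrins and Unc5 receptors 3 rose. Of the 20 semaphorins 5 rose, led by Sema3a, Sema7a and Sema5a, and 7 fell, led by Sema4a and Sema4d. Of the 7 Slits and Robos, Slit1 fell. The median absolute difference was 0.52 over the list and 0.18 over all genes.

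Of the ephrins, 3 of 8 fell and none rose. Efna3 had a lowest, median and highest value of 4.72, 10.81 and 11.29 in papilloma and of 4.19, 4.93 and 10.30 in spindle carcinoma. It fell by 3.98 (SE 0.67), 15.7-fold, in 9 of 9 mice (limma adjusted p = 0.00816). The lowest papilloma was that of mouse 1815 and the highest spindle carcinoma that of mouse 1949, both among the arrays that stood apart, and without those arrays Efna3 fell by 5.53 (SE 0.34). Efna1 fell by 0.80 (SE 0.18) in 8 of 9 mice and Efna4 by 0.77 (SE 0.21) in 7 of 9 mice. In the RefSeq gene order of build GRCm38.p6, Efna1, Efna3 and Efna4 are direct neighbours on chromosome 3, with no protein-coding gene between them. The 3 ephrins that fell were thus those of this cluster.

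Of the EphA receptors, Epha1 fell by 2.54 (SE 0.54), 5.82-fold, in 8 of 9 mice (adjusted p = 0.0125), from 5.51, 9.08 and 9.65 (lowest, median, highest) in papilloma to 4.88, 5.70 and 9.47. Epha4, a receptor for both ephrin classes, fell by 2.29 (SE 0.46), 4.91-fold, in 7 of 9 mice (adjusted p = 0.0104), from 6.07, 9.22 and 9.69 to 5.56, 6.18 and 9.66. Both groups overlapped through the papilloma of mouse 1815 and the carcinoma of mouse 1949. Epha3, in contrast, rose by 2.01 (SE 0.62) in 7 of 9 mice (adjusted p = 0.0419), with papillomas at 4.09, 4.86 and 9.98 and spindle carcinomas at 4.62, 7.52 and 9.74. Spindle carcinomas were thus split for Epha3, from low to high values. Of the EphB receptors, Ephb3 fell by 1.16 (SE 0.30) and Ephb6 by 1.15 (SE 0.31), the latter in 8 of 9 mice.

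Plxnb1 fell by 1.88 (SE 0.44), 3.69-fold, in 7 of 9 mice (adjusted p = 0.0172), and its ligand Sema4d fell by 0.87 (SE 0.28) in 7 of 9 mice (adjusted p = 0.0465). Both neuropilins, the co-receptors of class 3 semaphorins, passed: Nrp1 rose by 1.10 (SE 0.25), from a median of 8.75 to one of 9.81, in 9 of 9 mice (adjusted p = 0.0157), and Nrp2 by 0.84 (SE 0.20) in 8 of 9 mice. Plxna4 rose by 1.23 (SE 0.33) and Plxnd1 by 0.73 (SE 0.23), each in 8 of 9 mice, whereas Plxna2 fell by 0.83 (SE 0.21) and Plxna1 and Plxna3 did not pass. Sema3a, a ligand of Nrp1, had a lowest, median and highest value of 5.62, 6.77 and 9.76 in papilloma and of 6.61, 10.43 and 10.74 in spindle carcinoma. It rose by 2.65 (SE 0.72), 6.29-fold, in 7 of 9 mice (adjusted p = 0.0268). Its chromosomal neighbour Sema3d did not pass, and Sema3e, a ligand of Plxnd1, fell by 0.81 (SE 0.21). Sema7a, a GPI-anchored semaphorin that binds integrins, rose by 1.78 (SE 0.32) in 9 of 9 mice (adjusted p = 0.0088), from a median of 9.25 to one of 11.38. Sema5a, a transmembrane semaphorin, rose by 1.61 (SE 0.29) in 8 of 9 mice (adjusted p = 0.00863).

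Ntn1 rose by 2.05 (SE 0.63), 4.14-fold, in 7 of 9 mice (adjusted p = 0.0412), from 6.21, 7.60 and 9.83 in papilloma to 6.01, 10.40 and 10.71 in spindle carcinoma. Its receptors Unc5a and Unc5b rose with it, Unc5a by 1.84 (SE 0.45) in 8 of 9 mice (adjusted p = 0.0194) and Unc5b by 1.21 (SE 0.23) in 9 of 9 mice (adjusted p = 0.00921). Slit1 fell by 1.09 (SE 0.29) in 7 of 9 mice (adjusted p = 0.0267). The other called genes were Sema4a, Sema4f, Sema3c, Sema3g and Sema5b, which fell by 0.27 to 1.06, and Sema6b and Sema6d, which rose by 0.87 and 0.96.

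All 12 epithelial markers fell in this comparison and 5 of 10 macrophage markers rose. The macrophage list had a mean per mouse of 8.18 to 10.65 in papilloma and 9.35 to 11.17 in spindle carcinoma. Of the rest, 1 of 11 fibroblast markers rose and 2 of 7 Schwann cell, 2 of 9 lymphocyte and 1 of 10 hair follicle markers fell. The part of these lists in the changes of the guidance genes was not tested. Without the arrays that stood apart, 42 of the 67 genes passed, 18 higher and 24 lower, with 7912 of all genes. The count depended on which tumours were used. Where no count of all genes stands beside it, a count below shows only that dependence. Of the spindle carcinomas compared here, those of mice 1508, 1664, 1949, 1984 and 2022 include arrays with the term RegCA in their title, which the labels do not explain. Without these arrays 5 mice remained and none of the 67 genes and none of the 18772 passed, with Efna3 at -4.51 (SE 0.93, adjusted p = 0.0822). Batch 2 held mice 1456 and 1664, and only mouse 1664 was in this comparison. Batch 1 alone was thus the same fit as leaving out mouse 1664, and 12 genes passed. Leaving out 1 mouse gave 11 genes without mouse 1383, 12 without 1664, 14 without 1509, 16 without 1407 or 1508, 17 without 2022 and 19 without 1984, and 30 or 32 without mouse 1815 or 1949. None of the 30 differences changed sign in any of these settings. The calls were not equally stable. Those of Ntn1, Sema3a and Sema4d held in 8 of 17 other settings and that of Epha3 in 7 of 17. Those of Efna3, Epha1, Nrp1, Sema7a, Sema5a and Unc5b, among others, held in 16 of 17.

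**Figure D3:**
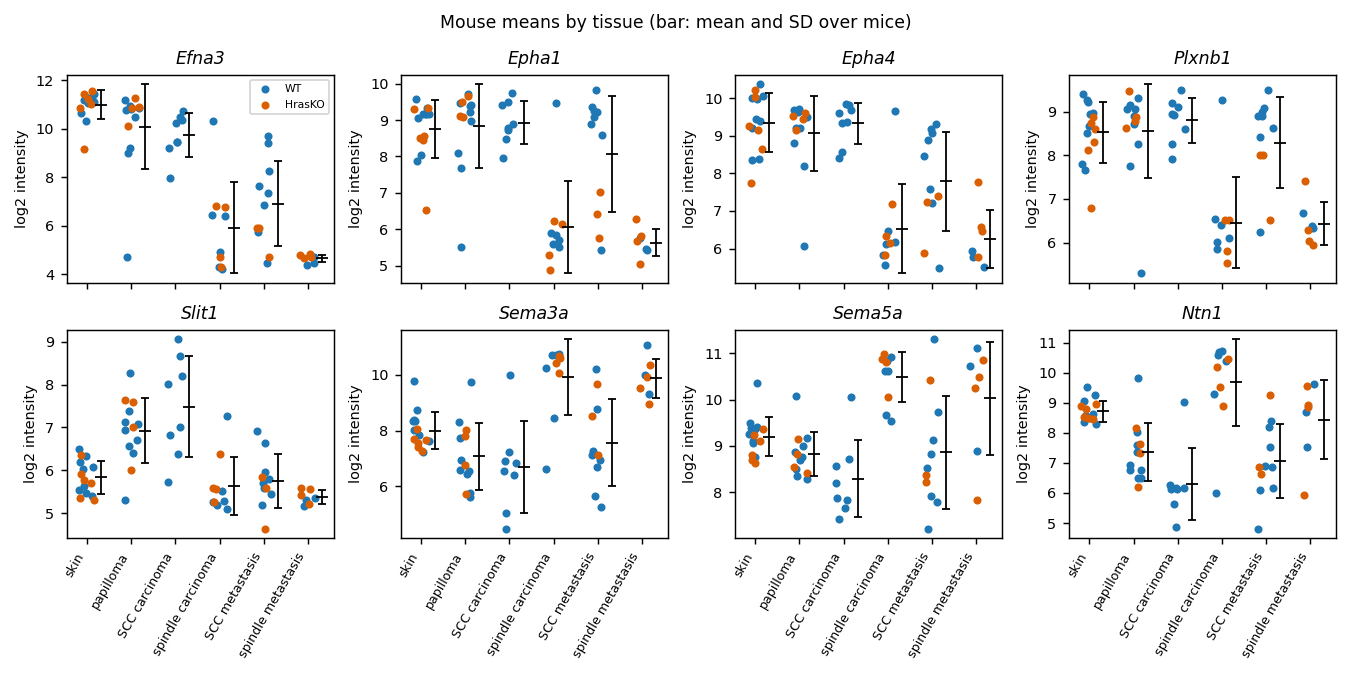
Log2 intensity of 8 guidance genes in each mouse (points, blue WT and orange HrasKO) by tissue, with the mean and SD over mice (bars). Efna3, Epha1, Epha4 and Plxnb1 are low in most spindle carcinomas and Sema3a, Sema5a and Ntn1 are high. The spindle carcinoma of mouse 1949 lies on the other side for these genes except Sema5a (10.30 for Efna3, 6.01 for Ntn1). For Sema5a it is the lowest at 9.53, near the next mouse at 9.67.

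**Figure D4:**
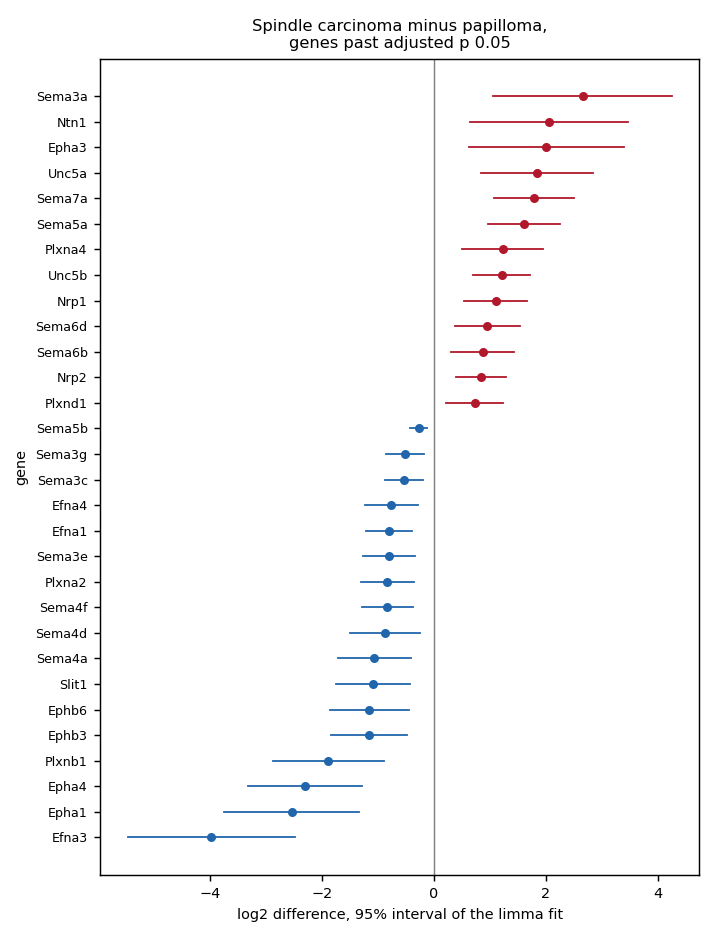
Log2 difference, spindle carcinoma minus papilloma of the same mouse (points, 9 mice), with its 95% interval from the limma fit (lines), for the 30 genes past adjusted p 0.05, red higher and blue lower in spindle carcinoma. Efna3 lies farthest left at -3.98 and Sema3a farthest right at 2.65.

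Spindle and SCC carcinomas were compared directly in WT mice, with 6 and 8 mice. This comparison shares spindle carcinomas with the one against papilloma, so its values are not independent of those. The spindle carcinomas of mice 1508, 1949, 1984 and 2022 had only RegCA-titled arrays, against 1 array among the SCC carcinomas. Histology and the RegCA title were thus largely confounded here, and their parts in a difference cannot be told apart. Of the 67 genes, 11 passed the test (limma with mouse as a random block), 4 higher and 7 lower in spindle carcinoma, where 7.56% of all genes passed, 3.47% higher and 4.09% lower. Efna3 had a lowest, median and highest value of 7.98, 9.85 and 10.75 in SCC and of 4.19, 5.68 and 10.30 in spindle carcinoma, a difference of -3.68 (SE 0.83, adjusted p = 0.021). Epha4 was lower by 2.72 (SE 0.54, adjusted p = 0.0162), Epha1 by 2.61 (SE 0.55, adjusted p = 0.0186) and Plxnb1 by 2.11 (SE 0.46, adjusted p = 0.0197). The SCC values of these 3 genes lay between 7.92 and 9.85, and among the spindle carcinomas that of mouse 1949 alone lay inside the SCC range of each.

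Ntn1 was higher in spindle carcinoma by 3.31 (SE 0.74), 9.95-fold (adjusted p = 0.0204), with SCC at 4.87, 6.15 and 9.04 (lowest, median, highest) and spindle at 6.01, 10.49 and 10.71. Sema3a was higher by 2.87 (SE 0.82, adjusted p = 0.0485) and Sema5a by 2.07 (SE 0.38, adjusted p = 0.0156). Nrp1 was higher by 1.09 (SE 0.26, adjusted p = 0.0264). Slit1 was lower by 1.90 (SE 0.53, adjusted p = 0.0443), Sema4d by 1.09 (SE 0.27, adjusted p = 0.0289) and Sema3e by 0.89 (SE 0.25, adjusted p = 0.0459). The 2 groups overlapped for every one of the 11 genes. In mouse 1949, both carcinomas lay at the far side of their group: Ntn1 was 9.04 in its SCC and 6.01 in its spindle carcinoma, and Sema3a 10.01 and 6.61.

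All 12 epithelial markers were lower in spindle carcinoma here as well, as were 1 of 7 Schwann cell and 1 of 10 hair follicle markers. Of the macrophage markers, 1 of 10 was higher. The part of these lists was not tested. Within batch 1, which here is the same fit as leaving out mouse 1456, 6 of the 67 genes passed. Nrp1, Sema3a, Sema3e, Sema4d and Slit1 did not. The same 5 genes lost their call when the RegCA-titled carcinomas were left out, where 11 genes in all passed. That setting kept the spindle carcinomas of mice 1383 and 1815 alone, too few to show that a call holds without RegCA-titled tumours. Without mouse 1949, 27 of the 67 genes passed, 11 higher and 16 lower; with the arrays that stood apart removed, 24 passed, 9 higher and 15 lower. Without mouse 1383, 1508 or 1984, none passed; 1 passed without 2022, 6 without 1456, 7 without 1717 or 1815 and 8 without 2104. With mouse as a fixed block, which leaves the 5 mice with both kinds, none of the 67 and none of all genes passed. With both genotypes together, 25 passed, 11 higher and 14 lower. Most of these counts stand without the share of all genes in the same setting. They show how the calls depend on the samples and are no result about the list.

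Sema4d, Sema5a and Sema3e passed in both spindle carcinoma comparisons and in papilloma against skin, as did Slit1 and Ntn1. The Sema5a call in papilloma against skin (adjusted p = 0.0497) held in 6 of 20 other settings and was lost in batch 1, with individual arrays and with no block. The Sema3e call between spindle and SCC carcinoma held in 7 of 18. Sema4d was 7.61 ± 0.49 in skin, 9.01 ± 0.39 in papilloma, 9.28 ± 0.34 in SCC carcinoma, 8.03 ± 0.62 in spindle carcinoma, 9.30 ± 0.54 in SCC metastasis and 8.87 ± 0.68 in spindle metastasis. Sema5a was 9.20 ± 0.42, 8.82 ± 0.47, 8.30 ± 0.83, 10.49 ± 0.54, 8.86 ± 1.21 and 10.02 ± 1.21 in the same order. Sema3e was 7.37 ± 0.51, 5.99 ± 0.53, 6.10 ± 0.57, 5.29 ± 0.45, 5.66 ± 0.79 and 5.04 ± 0.74. Sema4d was thus lowest in skin, Sema5a highest in spindle tumours and Sema3e highest in skin.

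SCC metastases were compared with SCC carcinomas of the same mouse in 8 mice. Of the 67 genes, 2 passed, both lower in metastasis, where 4.55% of all genes passed, 1.81% higher and 2.74% lower. Efna3 had a lowest, median and highest value of 7.98, 9.85 and 10.75 in the carcinomas and of 4.48, 7.50 and 9.69 in the metastases. It fell by 2.31 (SE 0.52), 4.96-fold, in 8 of 8 mice (limma adjusted p = 0.0408). Slit1 fell by 1.58 (SE 0.38), 2.99-fold, in 7 of 8 mice (adjusted p = 0.0495), from 5.72, 7.51 and 9.06 to 5.18, 5.76 and 6.91. Both genes overlapped between the groups. Each call held in 5 of 16 other settings. Efna3 did not pass with no mouse block, nor Slit1 with repeated quantile normalization. Neither passed within batch 1, with lymph node metastases alone, or without the arrays that stood apart, where Efna3 differed by -1.47 (adjusted p = 0.0917) and Slit1 by -1.32 (adjusted p = 0.151). With 1 mouse left out, 0 genes passed without 1456, 1508, 1717, 1949 or 1984, 1 without 1383 and 2 without 2022 or 2104. Leaving out mouse 1456 was the same fit as batch 1 alone. Of the markers, 4 of 9 lymphocyte, 2 of 10 macrophage and 1 of 9 lung epithelial genes were higher in metastasis. Lower were 1 of 12 epithelial and 1 of 10 hair follicle genes, and the part of these lists was not tested. The lymphocyte list had a mean per mouse of 5.41 to 6.94 in SCC carcinoma and 7.23 to 10.10 in SCC metastasis.

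**Figure D5:**
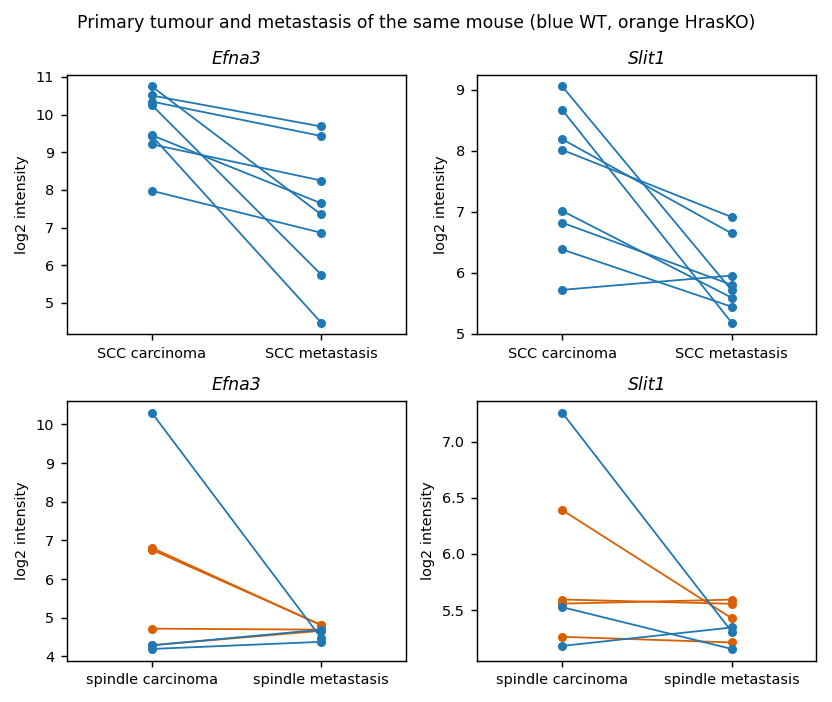
Log2 intensity of Efna3 and Slit1 in the primary carcinoma and the metastasis of the same mouse (lines join a mouse, blue WT and orange HrasKO), for SCC (top, 8 mice) and spindle histology (bottom, 7 mice); vertical scales differ between panels. Efna3 falls in all 8 SCC mice, while spindle tumours other than that of mouse 1949 start at 6.81 or below.

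Spindle metastases were compared with spindle carcinomas of the same mouse in 7 mice. None of the 67 genes passed by limma, and of all genes 0% passed; 9 of the 67 had an unadjusted p under 0.05, 3 higher and 6 lower, which is 13.4% of the list and close to the 13.3% of all genes. The largest differences were those of Efna5, an ephrin-A, at -1.31 (SE 0.39, adjusted p = 0.314), and Slit2, a Robo ligand, at -1.28 (SE 0.54, adjusted p = 0.372), each lower in 6 of 7 mice. Efna5 was 7.58, 9.00 and 9.38 (lowest, median, highest) in the carcinomas and 4.65, 7.61 and 9.34 in the metastases. For Efna3, the carcinomas had a median of 4.72 and the metastases one of 4.69, both under the median of all values, where a value can be background.

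Spindle and SCC metastases were compared in 7 and 11 mice with genotype as a covariate and mouse as a random block. None of the 67 genes passed, and 0.0693% of all genes did; 14 of the 67 had an unadjusted p under 0.05, 3 higher and 11 lower, which is 20.9% of the list and 18% of all genes. Sema3a had the largest difference, 2.14 higher in spindle metastasis (SE 0.62, adjusted p = 0.0991), with 5.25, 7.14 and 10.21 (lowest, median, highest) in SCC and 8.96, 9.91 and 11.09 in spindle metastasis. Efna3 differed by -1.97 (SE 0.62, adjusted p = 0.118), with 4.48, 6.86 and 9.69 in SCC and 4.38, 4.69 and 4.82 in spindle metastasis. The spindle metastases thus lay in a narrow band for Efna3 at the lower end of the SCC metastases. This band is under the median of all values, where a value can be background. Without the arrays that stood apart, 19 of the 67 genes and 1585 of all genes were under the threshold, with a difference of 3.77 for Sema3a and -3.43 for Efna3. The arrays removed include 8 SCC metastases picked because they resembled spindle tumours, so this widens the difference by construction and is no test of it. With lymph node metastases alone 16 of the 67 genes passed, 10 higher and 6 lower, with 2213 of all genes, and 1 or 2 passed without mouse 1537, 1706 or 1949.

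Whether the change from carcinoma to metastasis differed between the histologies was tested as an interaction over 15 mice. Genotype was a covariate and mouse a random block. Mice without both tissues were included, so the test was not purely within mice. SCC metastases came from 3 HrasKO mice, whereas all SCC carcinomas were from WT mice. None of the 67 genes passed, and of all genes 0% passed, with 6 of the 67 at an unadjusted p under 0.05, 8.96% of the list against 9.66% of all genes. The largest estimates were -1.96 for Ntn1 (SE 0.86, adjusted p = 0.452) and -1.94 for Epha7 (SE 0.68, adjusted p = 0.313), as the spindle change minus the SCC change. Without mouse 1949, Ntn1 passed at -2.67 (SE 0.69, adjusted p = 0.045). For the genes that fell in SCC metastasis, the estimate was 1.45 for Efna3 (SE 0.94, adjusted p = 0.66) and 1.43 for Slit1 (SE 0.49, adjusted p = 0.296), so their falls were not shown to differ from the spindle changes. Spindle tumours were low for both genes. WT spindle carcinomas had medians of 5.68 for Efna3 and 5.27 for Slit1, and spindle metastases had means of 4.65 and 5.37. All lie under 6.12, the median of all values, where a value can be background. The test therefore cannot decide whether the falls differ, since a fall in spindle tumours could go unseen.

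Lung and lymph node metastases were compared in the 8 mice that had both, with the share of spindle arrays as a covariate. None of the 67 genes and 0% of all genes passed by limma, and 6 of the 67 had an unadjusted p under 0.05, 8.96% of the list against 6.15% of all genes. Sema4f was 1.28 higher in lung (SE 0.40, adjusted p = 0.653), in 6 of 8 mice. Robo1, a Slit receptor, was 1.07 lower in lung (SE 0.27, adjusted p = 0.51), in 8 of 8 mice. Its lowest, median and highest values were 8.62, 9.65 and 10.78 in lymph node and 7.31, 8.65 and 9.67 in lung metastases. The lung epithelial list was higher in lung metastases by a median of 5.54, though none of its genes passed, and its part was not tested.

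The effect of the Hras genotype was tested in skin (6 HrasKO and 9 WT mice) and in papilloma (4 and 9 mice), with batch in the model. None of the 67 genes passed in either tissue, where 0.00533% of all genes passed in each; at an unadjusted p under 0.05 there were 4 in skin, 1 higher and 3 lower, and 0 in papilloma. That is 5.97% of the list against 11% of all genes in skin, and 0% against 5.11% in papilloma. In skin, Sema3a was 0.67 lower in HrasKO mice (SE 0.30, adjusted p = 0.438) and Nrp1, its receptor, 0.67 higher (SE 0.32, adjusted p = 0.463). Sema3a had a lowest, median and highest value of 7.22, 8.34 and 9.79 in WT and of 7.26, 7.61 and 8.05 in HrasKO skin. In papilloma, Efna3 differed by 0.90 (SE 1.02, adjusted p = 1) and Epha3 by -0.82 (SE 0.98, adjusted p = 1). These intervals are wide: that of Efna3 runs from -1.33 to 3.12.

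A list of 49 co-receptors, adaptors and effectors that act with the guidance genes had 43 measured members. In papilloma against skin, where 42.6% of all genes passed, 8 of the 43 rose and 13 fell. Ngef, an exchange factor downstream of Epha4, rose by 1.44 (SE 0.14, adjusted p = 4.58e-06) and Srgap1, a Slit-Robo GTPase activator, fell by 1.31 (SE 0.14, adjusted p = 7.89e-06). In spindle carcinoma against papilloma, where 23.8% of all genes passed, 13 rose and 10 fell. The adhesion molecules L1cam and Chl1, which associate with neuropilins, fell by 1.86 (SE 0.35) and 1.74 (SE 0.28), and Tiam1, a Rac activator, fell by 2.20 (SE 0.38). Dpysl3, a collapsin response mediator, rose by 1.94 (SE 0.41), Chn1 by 1.95 (SE 0.47) and Rgma, a neogenin ligand, by 1.02 (SE 0.24). The median difference of the list was 0.14, against 0.03 for all genes. Between spindle and SCC carcinoma, where 7.56% of all genes passed, 2 were higher and 3 lower in spindle carcinoma. In SCC metastasis against carcinoma, where 4.55% of all genes passed, 2 of the 43 fell. In SCC carcinoma against papilloma 1 fell, with 0.202% of all genes. Between spindle and SCC metastases 1 was lower in spindle metastasis, with 0.0693% of all genes. In the remaining comparisons none passed.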

How the data were processed

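Biotin-labelled cRNA from total RNA of skin, tumours and metastases was hybridised to Affymetrix arrays, per the labels' protocols. The authors deposited 1 table of log2 expression values for 28204 probe sets and 112 arrays, and the submitters' processing notes name RMA, with no version or genome build. The values ran from 2.10 to 13.93 with array medians between 5.89 and 6.36; depth has no counterpart here, and the number of mice limits the precision. Probe sets were named through the platform annotation: 21141 carried 1 symbol, 1881 several and 5182 none. For a gene with several probe sets, the one with the highest mean was used, which concerned 6 of the 67 genes.

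Values were averaged per mouse and group. Linear models with moderated statistics (lmFit, then eBayes, 2-sided) came from limma 3.58.1 under R 4.3.3, with Benjamini-Hochberg adjustment over all 18772 genes and a threshold of 0.05. Mouse was a fixed block where tissues of the same mouse were compared, since same-numbered samples come from the same animal, and a random block (duplicateCorrelation) for spindle against SCC tumours. Genotype comparisons had batch as a covariate, and metastases of the 2 histologies had genotype. The interaction had genotype as a covariate and mouse as a random block. The 4 arrays of mixed histology entered no comparison. The fits were tested on simulated data.

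The genes and lists were chosen with earlier results of these data known. In each comparison up to 6 rises and 6 falls of largest size were named with values, or the 2 largest differences where none passed; other called genes given with values were chosen after these were seen. Genes called in at least 3 comparisons were named too, and in each family the gene with the widest range of group means. Cell type lists were epithelial, fibroblast, endothelial, Schwann and nerve, macrophage, lymphocyte, skeletal muscle, lung epithelial and hair follicle. Robo4, also an endothelial marker, was left out of the endothelial counts because it is one of the 67 genes. Alternatives were individual arrays, averaging a gene's probe sets, keeping genes above 6.12 in at least 8 arrays, repeated quantile normalization, batch 1 alone, other treatments of the mouse block, lymph node metastases alone, leaving out RegCA-titled tumours, both genotypes together, and leaving out each mouse. Batch 2 held mice 1456 and 1664 alone. Where only 1 of them was in a comparison, batch 1 alone was the same fit as leaving that mouse out. Both names of that fit entered the counts of other settings. Leaving out the 16 arrays that stood apart was chosen after seeing the data.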

Additional observations from a re-analysis of the deposited data

Results flagged for a closer look

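Among the 10 guidance genes described in every tissue, 30 sets of mouse values with 7 to 10 mice were screened for a value far from the others, and 5 stood out. Chance alone flags about 1 in 20 independent sets. These sets share arrays and mice, and the genes were chosen from these data, so the 5 flags cannot be set against that rate. All 5 were from mouse 1949, and most of them from its spindle carcinoma, already named as closest to the squamous class. In spindle carcinoma it was the highest mouse for Efna3 at 10.30, for Epha1 at 9.47 and for Plxnb1 at 9.27, and the lowest for Ntn1 at 6.01. In SCC carcinoma it was the highest mouse for Ntn1 at 9.04. The nearest other mice were at 6.81, 6.23, 6.54, 8.88 and 6.27.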

How the results depend on the processing

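None of the log2 differences of called genes changed sign under any alternative. In papilloma against skin every count stayed within 1.5 times of 33, and leaving out 1 mouse gave 30 to 34. In SCC carcinoma against papilloma, 1 gene passed with the filter on low values, 1 with repeated quantile normalization, 1 with no replicate block and 2 without the arrays that stood apart. In spindle carcinoma against papilloma, 12 passed in batch 1 alone, 0 without RegCA-titled tumours, and 11 to 32 with 1 mouse left out. In spindle against SCC carcinoma, 6 passed in batch 1 alone, 0 with a fixed replicate block, 25 with both genotypes, 24 without the arrays that stood apart and 0 to 27 with 1 mouse left out. In SCC metastasis against carcinoma, 6 passed with individual arrays, 4 with the filter, 1 with no replicate block, 0 in batch 1, with lymph nodes alone or without the arrays that stood apart, and 0 to 2 with 1 mouse left out. In spindle against SCC metastasis, 10 passed with individual arrays, 3 with the filter, 16 with lymph nodes alone, 19 without the arrays that stood apart and 0 to 2 with 1 mouse left out. The interaction gave 0 to 1 with 1 mouse left out, and lung against lymph node 3 with individual arrays. The block changed no other call count by over 1.5 times. These counts stand without the share of all genes in the same setting, so they are no result about the list. The filter tests fewer genes, and batch 1, lymph nodes alone and omissions use fewer samples. Otherwise the cause was not tested. Individual arrays of a mouse are not independent, and all tumours are small groups of mice. With the mean over probe sets, the level of Efna3 moved by more than 1 SD in 3 of 6 groups and that of Plxnb1 in 5.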

Other observations

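Carcinomas of mixed histology, 1 array from each of 3 mice, entered no comparison. Efna3 was 4.36 in mouse 1616, 7.96 in mouse 1706 and 7.69 in mouse 1949, and Sema3a was 10.49, 9.56 and 10.02 in the same mice. Over genes outside the list, the arrays of mice 1616 and 1949 were closest to spindle tumours and that of mouse 1706 to the squamous class. The 1 metastasis of mixed histology, from mouse 1508, had Efna3 at 4.75 and Sema3a at 8.93 and was closest to spindle tumours.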
